A study of Rattus norvegicus with 9 samples.

Results

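Genes of immature neurons and growing axons were followed in the hypothalamus of female rats through the onset of puberty. The 9 genes were doublecortin (Dcx), stathmin 1 (Stmn1), beta-III tubulin (Tubb3), the collapsin response mediator proteins Dpysl3 and Dpysl5, neuropilin 1 (Nrp1), the growth-associated protein Gap43, and the transcription factors Dlx1 and Sox11. Every probe set whose platform annotation gave exactly 1 gene symbol, that of one of these genes, was taken. This gave 14 probe sets out of 31042 on the array, and 9 genes out of 14217. The study set arrays of normal juvenile females at day 26, which its labels name as controls, beside early pubertal females at day 29 and late pubertal females at day 31. Each stage had 3 arrays, each of the hypothalamus of a single rat, and no group carried an allele or received an agent per the labels. Strain is not given in the sources used here, and whether littermates were shared is not stated.

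As a neuron matures, its growing axon is led by a growth cone whose microtubules are continually assembled and taken apart. Doublecortin, stathmin and neuron-specific tubulin act on those microtubules. Collapsin response mediator proteins carry repulsive semaphorin signals from neuropilin receptors to the cytoskeleton, and Gap43 lies under the growth cone membrane. Dlx1 and Sox11 are transcription factors of young neurons. Most of these genes are turned down as the brain matures, but the hypothalamus keeps some of them on where neurons stay plastic or are still added.

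None of the 9 genes passed the test in any comparison of stages. In early pubertal rats Dpysl5 stood 0.24 below juvenile rats on the log2 scale, the brighter Nrp1 probe set 0.23 below and Dlx1 0.33 below, while Stmn1 stood 0.19 above. Dpysl5 and Nrp1 had early pubertal ranges fully below the juvenile ones, as did 4.43% of all tested probe sets. Late pubertal ranges lay fully below the juvenile ones for the brighter Nrp1 set and, by little, for Gap43 (5.52% of all), and above them for Stmn1 (5.90%). In late pubertal rats Dpysl5 stood 0.03 below the juvenile mean and Dlx1 0.37 below it, each with overlapping arrays. The early pubertal arrays of Dlx1 and Stmn1 also overlapped the juvenile ones. Gap43 and Dpysl3 were nearly level across stages, and Dcx differed by less than its spread between rats.

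Levels are given as log2(signal + 16) after quantile normalization between arrays, and differences are on that scale, which understates the change of dim probe sets. Only probe sets with a mean log2 level above 6.30 were tested, and 9 of the 14 member probe sets passed, standing for 8 genes. Sox11, which has 1 probe set, lay below that filter, as did the dimmer probe sets of Dcx, Tubb3, Dpysl3 and Gap43. The limma fit called 0 of the 9 member probe sets at an adjusted p under 0.05 in each of the 3 comparisons of stages, in the F test over stages and for a slope on age. The background is the same, since limma called 0% of all 18625 tested probe sets in each of them. At an unadjusted p under 0.05 the early pubertal against juvenile comparison held 4 of the 9 member probe sets, beside 831 or 4.46% of all tested. Of these 1 was higher (1.92% of all) and 3 were lower (2.54% of all). The late pubertal against juvenile comparison held 1 of the 9 (772 or 4.14% of all), with 0 higher (2.23%) and 1 lower (1.92%). The late against early pubertal comparison held 1 of the 9 (971 or 5.21%), with 1 higher (2.94%) and 0 lower (2.27%). The F test held 1 of the 9 (786 or 4.22%) and the slope on age 1 of the 9 (760 or 4.08%), with 0 higher (2.26%) and 1 lower (1.82%). The members were chosen with earlier results of these arrays in view, so these shares carry no weight as evidence about the group.

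The deposited signals did not share a common level between arrays. Trimmed means differed by up to 1.41 times, and at the deposited level the median tested probe set stood 0.24 lower in early pubertal than in juvenile rats and 0.22 higher in late than in early pubertal rats. The juvenile to late pubertal shift was −0.02. The 3′ over 5′ signal of actin control probes, a measure of RNA integrity, ran from 2.14 to 3.24 over the arrays. The actin ratio was highest in late pubertal replicate 20 and juvenile replicate 2 and lowest in early pubertal replicate 8. The same ratio of GAPDH control probes was nearly level, from 0.948 to 1.02. Of 12 listed hypothalamic markers 9 lay above the filter, but so did 10600 of the 14217 named genes, so that count does not mark the tissue. Their levels varied, with Pmch at a mean log2 level of 12.72, Avp at 11.80, Oxt at 11.77 and Hcrt at 10.25, but Nr5a1 at 6.77. Sim1 and Otp lay below the filter, and Hmx3 had no probe set with a single symbol. In whole tissue, fewer cells of a type and less RNA per cell cannot be told apart.

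**Figure D1:**
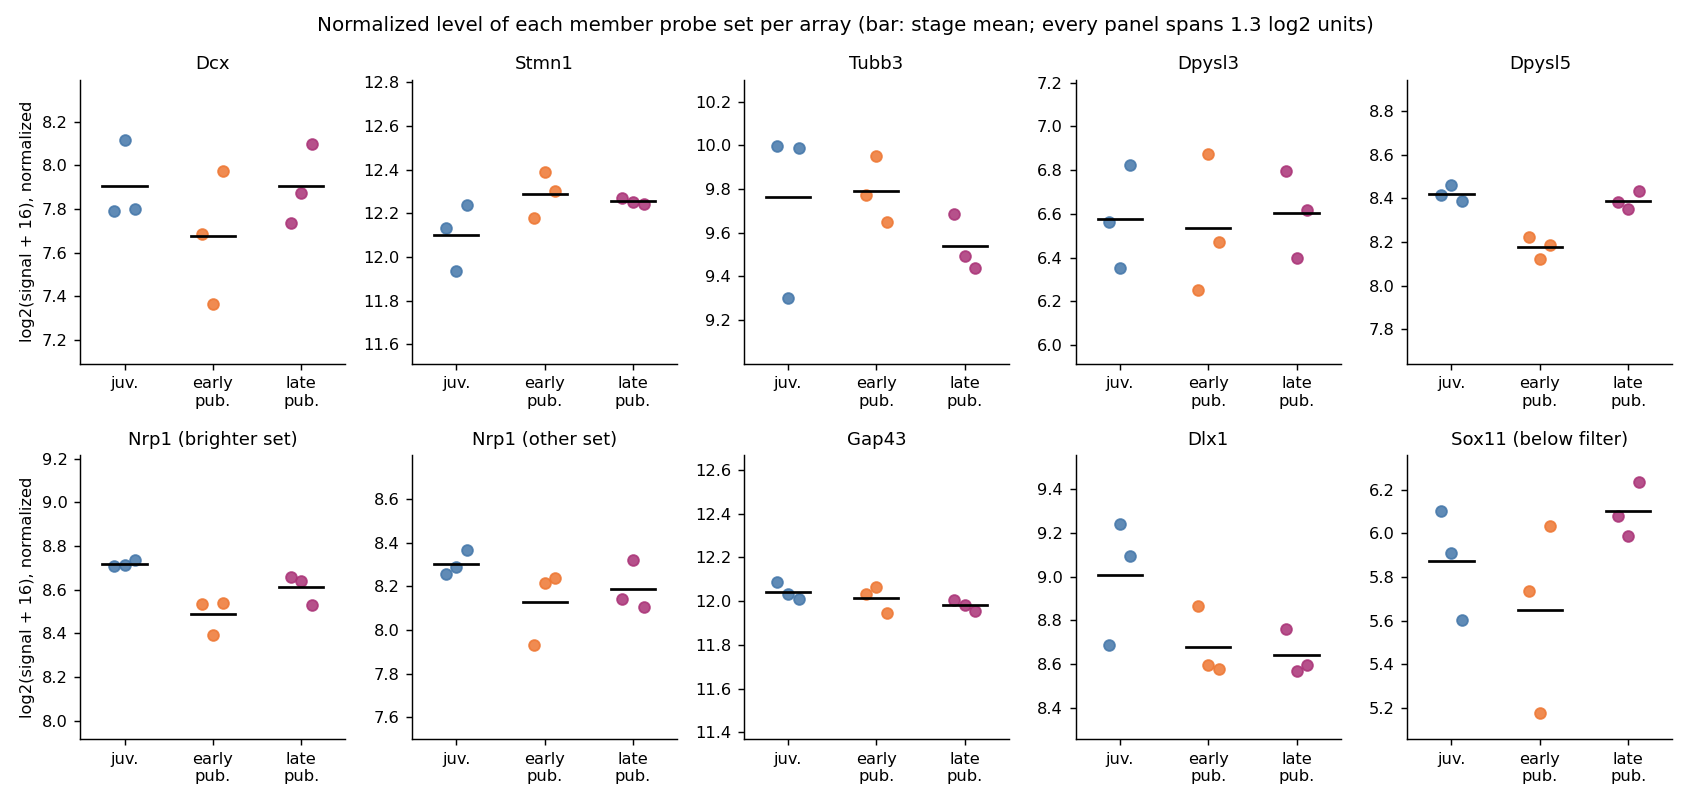
Normalized log2(signal + 16) of the 9 tested member probe sets and of Sox11 on each of the 9 arrays, by stage. Points are single rats and bars are the means of 3 rats; every panel spans the same number of log2 units. Dpysl5 sits between 8.12 and 8.22 in early pubertal rats, under all juvenile and late pubertal arrays, and Tubb3 in juvenile rats holds 1 array at 9.30 far under the other two.

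Among the microtubule proteins, Dcx binds and stabilizes microtubules in migrating neurons. Its brighter probe set had log2 levels of 7.79, 8.12 and 7.80 in juvenile replicates 1, 2 and 3, of 7.68, 7.37 and 7.97 in early pubertal replicates 7, 8 and 10, and of 7.74, 7.88 and 8.10 in late pubertal replicates 12, 14 and 20. The stages overlapped, and early pubertal replicate 8 was the lowest array. Early pubertal rats averaged 7.68 ± 0.30 and juvenile rats 7.90 ± 0.18 (SD, n = 3 each), a difference of −0.23 ± 0.17 (SE) with a 95% interval of −0.60 to 0.14 and a limma adjusted p of 0.994. The late pubertal mean was 7.90 ± 0.18, and its difference from juvenile rats was 0.0003 with a 95% interval of −0.37 to 0.37. That value has no settled sign, since it was −0.02 with median centring and −0.00687 at the deposited level. The dimmer Dcx probe set lay at deposited signals of 1.88 to 13.7 and was not tested.

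Stmn1 binds free tubulin subunits and so keeps them out of microtubules. Log2 levels were 12.13, 11.94 and 12.24 in juvenile rats, 12.18, 12.39 and 12.30 in early pubertal rats, and 12.27, 12.25 and 12.24 in late pubertal rats. The late pubertal arrays all lay above the juvenile ones, by a narrow margin, while early pubertal replicate 7 lay inside the juvenile range. Early pubertal rats stood at 12.29 ± 0.10 and juvenile rats at 12.10 ± 0.15 (SD, n = 3 each), a difference of 0.19 ± 0.07 (SE), with a 95% interval of 0.03 to 0.35 and a limma adjusted p of 0.994. The difference was 0.05 at the deposited level and 0.27 with arrays centred on their medians. Late pubertal rats, at 12.26 ± 0.01, differed from juvenile rats by 0.15 ± 0.07 (95% interval −0.01 to 0.31, limma adjusted p = 0.9998). Juvenile replicate 2 held the lowest value, and without it the early pubertal difference was 0.10 and the late pubertal one 0.07.

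Tubb3 is the tubulin subunit made mainly in neurons. Its brighter probe set carries the suffix that marks probes shared by more than 1 transcript, so other tubulins could add to it. Juvenile levels were 9.998, 9.303 and 9.987, early pubertal levels 9.77, 9.95 and 9.65, and late pubertal levels 9.69, 9.49 and 9.44. Juvenile replicate 2 was the lowest of all arrays, while the other juvenile rats were the highest. The within-stage SD was 0.26, against a median of 0.12 for tested probe sets of like level, and 94.2% of those had a smaller SD. Late pubertal rats stood at 9.54 ± 0.13 and juvenile rats at 9.76 ± 0.40 (SD, n = 3 each), a difference of −0.22 ± 0.17 (SE; limma adjusted p = 0.9998). Without juvenile replicate 2 it was −0.45 with a limma adjusted p of 0.377. The early pubertal difference from juvenile rats was 0.03 ± 0.17, and it turned to −0.20 without that array, to −0.05 without early pubertal replicate 8, to −0.23 at the deposited level and to −0.02 with median centring. The other Tubb3 probe set was dim, at deposited signals of 10.6 to 75.2, and was not tested.

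Of the collapsin response mediator proteins, Dpysl5, also called Crmp5, acts in growth cones and slows neurite outgrowth. Log2 levels were 8.42, 8.46 and 8.39 in juvenile rats, 8.22, 8.12 and 8.19 in early pubertal rats, and 8.38, 8.35 and 8.43 in late pubertal rats. All early pubertal arrays lay below all others. Early pubertal rats averaged 8.18 ± 0.05 and juvenile rats 8.42 ± 0.04 (SD, n = 3 each), a difference of −0.24 ± 0.10 (SE), or 0.844-fold with a 95% interval of 0.729 to 0.977. The limma adjusted p was 0.994. Late pubertal rats stood 0.21 ± 0.10 above early pubertal rats, at 1.16-fold, with a 95% interval of 0.0004 to 0.42 log2 units and a limma adjusted p of 0.914. They differed from juvenile rats by −0.03 ± 0.10, with an interval of −0.24 to 0.18.

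Dpysl5 was among the steadiest tested probe sets of its level. Its SD between rats of a stage was 0.0438 on the log2 scale, where probe sets of like level had a median of 0.161 and 0.0999% of them had a smaller SD. limma draws each SD toward that of probe sets of like level, so its SE for Dpysl5 is wider than these 9 arrays alone would give. The direction held without any single array, at −0.27 to −0.22 for early pubertal against juvenile rats and 0.19 to 0.23 for late against early pubertal rats. At the deposited level the early pubertal difference was −0.50, which is −0.26 relative to the median shift of all tested probe sets.

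**Figure D2:**
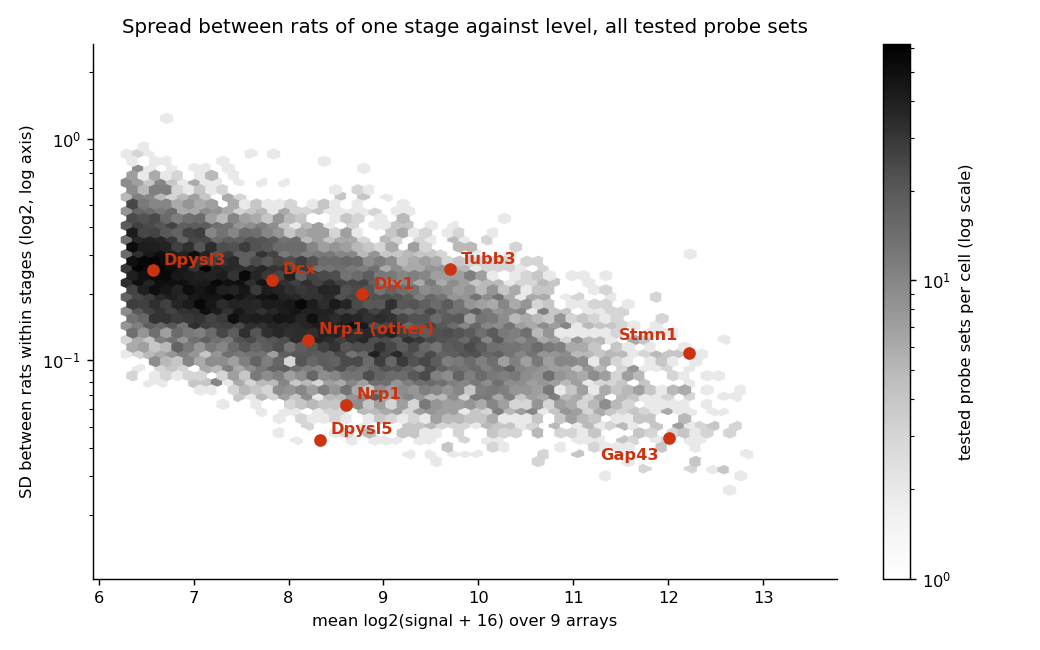
SD between rats within stages (log2, on a log axis) against the mean log2(signal + 16) over 9 arrays, for all 18625 tested probe sets (grey, darker where more lie) and the 9 tested member probe sets (red). Dpysl5 lies at the lower edge with an SD of 0.0438 and Tubb3 near the upper edge with 0.26.

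Dpysl3, also called Crmp4, also acts in growth cones and had 1 probe set just above the filter, with a mean log2 level of 6.57. Its levels were 6.56, 6.35 and 6.82 in juvenile rats, 6.25, 6.88 and 6.47 in early pubertal rats and 6.80, 6.40 and 6.62 in late pubertal rats. The stages overlapped widely. The difference from juvenile rats was −0.05 ± 0.21 in early pubertal rats and 0.02 ± 0.21 in late pubertal rats (limma adjusted p = 0.997 and 0.9998), with intervals of −0.51 to 0.41 and −0.43 to 0.48. As folds, those intervals reach up to 1.33 in early pubertal and 1.40 in late pubertal rats. Its other probe set had deposited signals of 3.85 to 27.4 and was not tested.

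Nrp1 is the receptor that binds class 3 semaphorins in axons and, with the receptor Kdr, vascular endothelial growth factor in vessels. It was the only member with both probe sets above the filter. The brighter had log2 levels of 8.71, 8.71 and 8.74 in juvenile rats, 8.53, 8.39 and 8.54 in early pubertal rats and 8.66, 8.64 and 8.53 in late pubertal rats. The juvenile arrays lay above all others. The other probe set had 8.26, 8.29 and 8.37 in juvenile rats, 7.93, 8.21 and 8.24 in early pubertal rats and 8.14, 8.32 and 8.10 in late pubertal rats. Here early pubertal arrays again lay below all juvenile ones, while late pubertal replicate 14 fell inside the juvenile range.

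On the brighter Nrp1 probe set early pubertal rats stood at 8.49 ± 0.08 and juvenile rats at 8.72 ± 0.02 (SD, n = 3 each), a difference of −0.23 ± 0.10 (SE), or 0.852-fold with a 95% interval of 0.737 to 0.984 and a limma adjusted p of 0.994. The other gave −0.18 ± 0.12 with the same limma adjusted p, and −0.08 without early pubertal replicate 7. Late pubertal rats differed from juvenile rats by −0.11 ± 0.10 and −0.11 ± 0.12 on the brighter and the other set (limma adjusted p = 0.9998 for both). Late against early pubertal rats differed by 0.12 ± 0.10 and 0.06 ± 0.12, and the second of these turned to −0.04 without early pubertal replicate 7 and was −0.004 without late pubertal replicate 14. At the deposited level the early pubertal differences were −0.49 and −0.43, or −0.25 and −0.19 relative to the median shift.

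Because vessels and leptomeninges also make Nrp1, their markers are given beside it. Kdr differed from juvenile rats by −0.29 ± 0.12 in early pubertal and −0.32 ± 0.12 in late pubertal rats, and Vwf by −0.23 and 0.05. None of the 7 tested vessel markers of 9 listed passed, and 3 stood above and 4 below 0 in early pubertal rats. Summed over all probe sets of the listed genes, their normalized signal ran from 2613 to 2871 in juvenile rats, from 2360 to 2950 in early pubertal rats and from 2515 to 2556 in late pubertal rats. All 8 leptomeningeal markers stood above 0 against juvenile rats in both pubertal stages, with a median of 0.20 in early and 0.34 in late pubertal rats, and none passed. Over all tested probe sets 50.4% lay below 0 in both comparisons, which use the same juvenile arrays. Fmod was at 0.19 in early and 0.40 in late pubertal rats, and Mgp at 0.36 in both. Their summed signal was 10142 to 12870, 10369 to 15940 and 12430 to 14330 in the order of the stages. The part of either tissue in the Nrp1 values was not tested.

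Among the early pubertal and juvenile arrays, 3 of the 9 member probe sets were fully separated and lower, that of Dpysl5 and both of Nrp1, beside 4.43% of all tested probe sets, and 0 were separated and higher, beside 3.86%. Between late pubertal and juvenile arrays, 2 were separated and lower, the brighter Nrp1 set and Gap43 (5.52% of all), and 1 was separated and higher, Stmn1 (5.90%). Between late and early pubertal arrays, Dpysl5 was separated and higher (5.97%) and 0 were separated and lower (5.37%).

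The promoters of Dpysl5 and Nrp1 are shown because these genes had the separated early pubertal values. The sequences are the 250 bases before the annotated start on the gene's own strand, from RefSeq on GRCr8, where 8 of the 9 genes have an entry and Gap43 does not. Capitals mark GGGCGG, the GC box, on either strand.
Dpysl5, chr6:31379349-31379598, minus strand: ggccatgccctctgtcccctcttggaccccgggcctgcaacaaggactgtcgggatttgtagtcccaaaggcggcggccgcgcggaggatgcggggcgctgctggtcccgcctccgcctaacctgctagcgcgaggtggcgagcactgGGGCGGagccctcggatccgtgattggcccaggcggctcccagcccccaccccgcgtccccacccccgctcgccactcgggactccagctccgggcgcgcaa
Nrp1, chr19:73256307-73256556, plus strand: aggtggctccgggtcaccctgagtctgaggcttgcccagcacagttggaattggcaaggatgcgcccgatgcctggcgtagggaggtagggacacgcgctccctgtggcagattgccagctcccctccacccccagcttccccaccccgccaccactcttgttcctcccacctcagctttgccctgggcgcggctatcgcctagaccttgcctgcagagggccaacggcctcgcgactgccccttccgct

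The Dpysl5 window holds the GC box once and the Nrp1 window not at all. It is held by 6 of the 9 promoter entries of the members and by 30.5% of 33469 promoter windows of the same length. These entries are of 8 genes, since Dpysl3 is entered more than once, and each Dpysl3 entry holds the GC box. The Dpysl5 window has 26 CpG and the Nrp1 window 14, beside a median of 5 over all windows. This is not particular to them, since the windows of Stmn1, Tubb3, Dpysl3, Dlx1 and Sox11 have 14 to 22. The Dcx window has 2. These are letters in a window and say nothing of which factor binds there.

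Gap43, a phosphoprotein of growth cones and of presynaptic terminals that remodel, was the steadiest of the bright members. Log2 levels were 12.09, 12.03 and 12.01 in juvenile rats, 12.03, 12.07 and 11.95 in early pubertal rats and 12.005, 11.982 and 11.955 in late pubertal rats. The late pubertal arrays lay just under the juvenile ones. The difference from juvenile rats was −0.06 ± 0.05 in late pubertal rats (limma adjusted p = 0.9998), with a fold interval of 0.889 to 1.03. In early pubertal rats it was −0.03 ± 0.05 with a fold interval of 0.911 to 1.06, and the sign turned to 0.04 with arrays centred on their medians. The dimmer Gap43 probe set, at deposited signals of 0.829 to 18.9, was not tested.

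Dlx1, a homeobox factor of developing inhibitory neurons, had the largest differences from juvenile rats of the 8 tested genes. Log2 levels were 8.69, 9.24 and 9.10 in juvenile rats, 8.87, 8.59 and 8.58 in early pubertal rats and 8.76, 8.57 and 8.60 in late pubertal rats. Juvenile replicates 2 and 3 lay above all other arrays, while juvenile replicate 1 lay among the pubertal ones. Late pubertal rats averaged 8.64 ± 0.10 and juvenile rats 9.01 ± 0.29 (SD, n = 3 each), a difference of −0.37 ± 0.14 (SE), or 0.776-fold with an interval of 0.624 to 0.964. The limma adjusted p was 0.9998. Early pubertal rats stood at 8.68 ± 0.16, a difference of −0.33 ± 0.14 from juvenile rats (95% interval −0.64 to −0.02, limma adjusted p = 0.994).

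Fitted as a straight line on age, Dlx1 had a slope of −0.08 ± 0.03 log2 units per day with a limma adjusted p of 0.998. The late pubertal difference was −0.52 without juvenile replicate 1 and −0.25 without juvenile replicate 2. Late and early pubertal rats differed by −0.04 ± 0.14, and at the deposited level the sign was positive, at 0.20, beside the median shift of 0.22. Markers of telencephalon and thalamus, where tissue at the edge of the dissection could also carry Dlx1, had summed normalized signals of 2128 to 2135 in juvenile rats, 1878 to 2176 in early pubertal rats and 1991 to 2178 in late pubertal rats. Of 10 such markers 5 were tested and 0 passed, with Drd1 at 0.19 and Tcf7l2 at −0.17 in early pubertal against juvenile rats. Adora2a, Neurod6 and Emx1 lay below the filter. Their part in the Dlx1 values was not tested.

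Sox11 supports the survival and differentiation of newly made neurons. It lay at deposited signals of 19.6 to 71.7, below the filter, with log2 levels of 6.10, 5.91 and 5.60 in juvenile rats, 5.74, 5.18 and 6.03 in early pubertal rats and 6.08, 5.99 and 6.23 in late pubertal rats. Early pubertal replicate 8 was the lowest array and the stages overlapped. In the fit without a filter, late pubertal rats differed from early pubertal rats by 0.45 ± 0.26 (limma adjusted p = 0.921) and from juvenile rats by 0.23 ± 0.26 (limma adjusted p = 0.9996). Early pubertal rats differed from juvenile rats by −0.22 ± 0.26 (limma adjusted p = 0.994). Detection calls were not used here, so a signal this low has no stated distance from background.

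**Figure D3:**
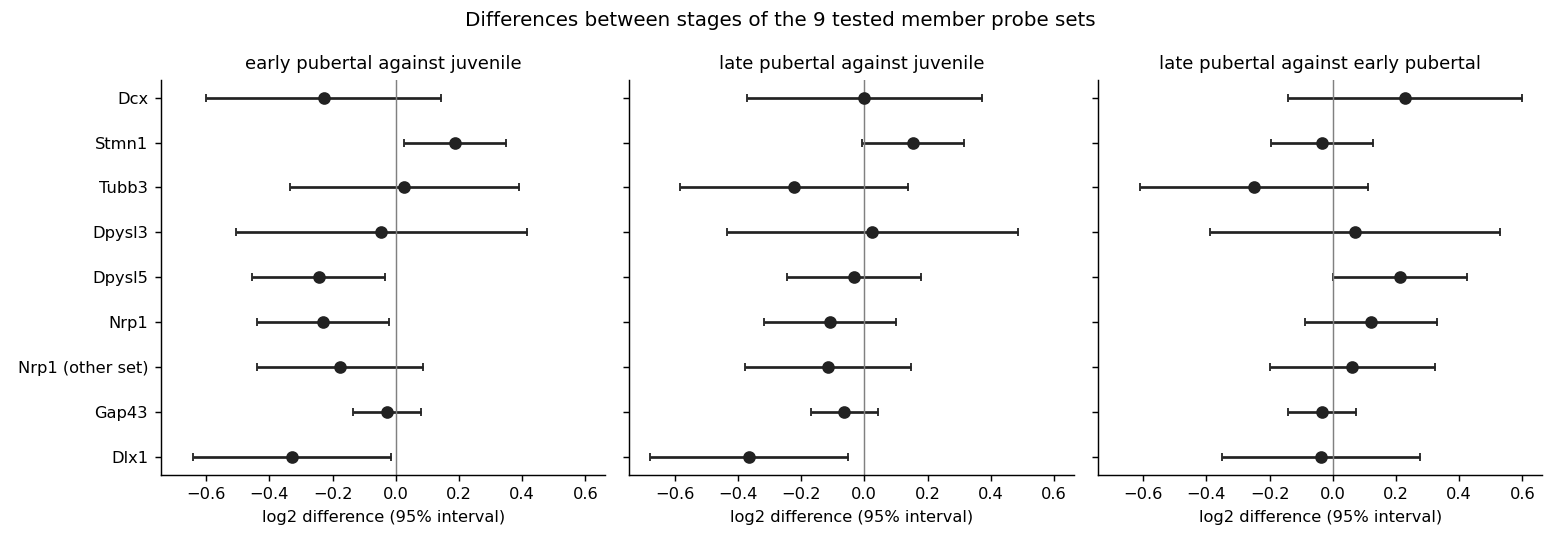
Log2 differences between stages for the 9 tested member probe sets, from the limma fit over all 9 arrays, with 95% intervals not adjusted for the number of probe sets. In the early pubertal against juvenile panel, 4 intervals leave 0 out, those of Stmn1, Dpysl5, the brighter Nrp1 set and Dlx1, and no adjusted p passed; with arrays at the deposited level or centred on their medians the early pubertal sign of Tubb3 turns, and with median centring that of Gap43.

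Of the 9 tested member probe sets, 7 were below 0 in early pubertal against juvenile rats and 6 in late pubertal against juvenile rats, beside 50.4% of all tested in both comparisons. In late against early pubertal rats 4 were below 0 (49.9% of all), and 7 had slopes below 0 (50.5% of all). Over the 8 tested genes, each by its brightest probe set, the median difference from juvenile rats was −0.14 in early pubertal rats, with 2 above and 6 below 0, beside a median of −0.001 over all tested probe sets. In late pubertal rats it was −0.05, with 3 above and 5 below. Both differences use the same juvenile arrays. Late against early pubertal rats gave a median of 0.02, with 4 on either side. Juvenile replicate 2 was the highest array for 3 of the 8 genes and the lowest for 2, and early pubertal replicate 8 was the highest for 2 and the lowest for 3. Neither array was extreme in 1 direction for all of them.

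Other genes of neuronal growth were read from 6 lists of 64 genes, of which 58 had a probe set with a single symbol and 50 were tested. None passed in any comparison, and the smallest limma adjusted p over the 50 was 0.914. At an unadjusted p under 0.05 there were 3 in early pubertal against juvenile rats, 1 in late pubertal against juvenile rats and 3 in late against early pubertal rats, beside 4.46%, 4.14% and 5.21% of all tested probe sets. In early pubertal against juvenile rats 14 stood above 0 and 36 below, with a median of −0.06. In late pubertal rats 16 stood above and 34 below, with a median of −0.05. Over all tested probe sets 50.4% lay below 0 in both comparisons, with a median of −0.001.

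The other collapsin response mediator proteins stood on the same side of 0 as Dpysl5 in early pubertal rats. Dpysl2 differed from juvenile rats by −0.11 ± 0.07 and Dpysl4 by −0.16 ± 0.12 (limma adjusted p = 0.994 for both), and 3 of 3 listed were below 0 in both pubertal stages. In late pubertal rats Dpysl2 was at −0.13 and Dpysl4 at −0.19, where Dpysl5 was at −0.03. Of 8 tested semaphorin ligands and receptors that work with neuropilins, 6 were below 0 in each pubertal stage. Sema3f, a ligand of neuropilin 2, differed from juvenile rats by −0.27 ± 0.19 in early pubertal and −0.40 ± 0.19 in late pubertal rats, and Plxna1, a signalling partner of neuropilins, by −0.06 ± 0.11 and −0.24 ± 0.11. The ligands Sema3a, Sema3b and Sema3d lay below the filter.

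Of 12 tested microtubule and cytoskeleton genes, 3 stood above and 9 below 0 in early pubertal against juvenile rats, and 7 above and 5 below in late pubertal rats. Map1b, a microtubule-associated protein of growing axons, gave −0.10 ± 0.04 in early pubertal and 0.01 ± 0.04 in late pubertal rats, and the motor subunit Kif5c −0.19 ± 0.14 and 0.14 ± 0.14. Of 12 tested guidance cues and receptors, 9 were below 0 in early pubertal rats and 7 in late pubertal rats. Epha4, a receptor for ephrins, gave −0.29 ± 0.11 in early and −0.13 ± 0.11 in late pubertal rats, and Slit2, a repellent ligand, −0.14 ± 0.16 and 0.19 ± 0.16. Of 13 tested growth cone and adhesion genes, 8 were below 0 in early pubertal and 12 in late pubertal rats. Marcks, a membrane protein that holds actin regulators, gave −0.17 ± 0.07 in early pubertal and −0.04 ± 0.07 in late pubertal rats, and its relative Marcksl1 0.01 ± 0.06 and −0.13 ± 0.06. Only 2 of 10 listed transcription factors were tested. Dlx5 stood at 0.07 ± 0.16 and Sox4 at −0.07 ± 0.22 in early pubertal against juvenile rats, where Dlx1 was at −0.33.

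**Figure D4:**
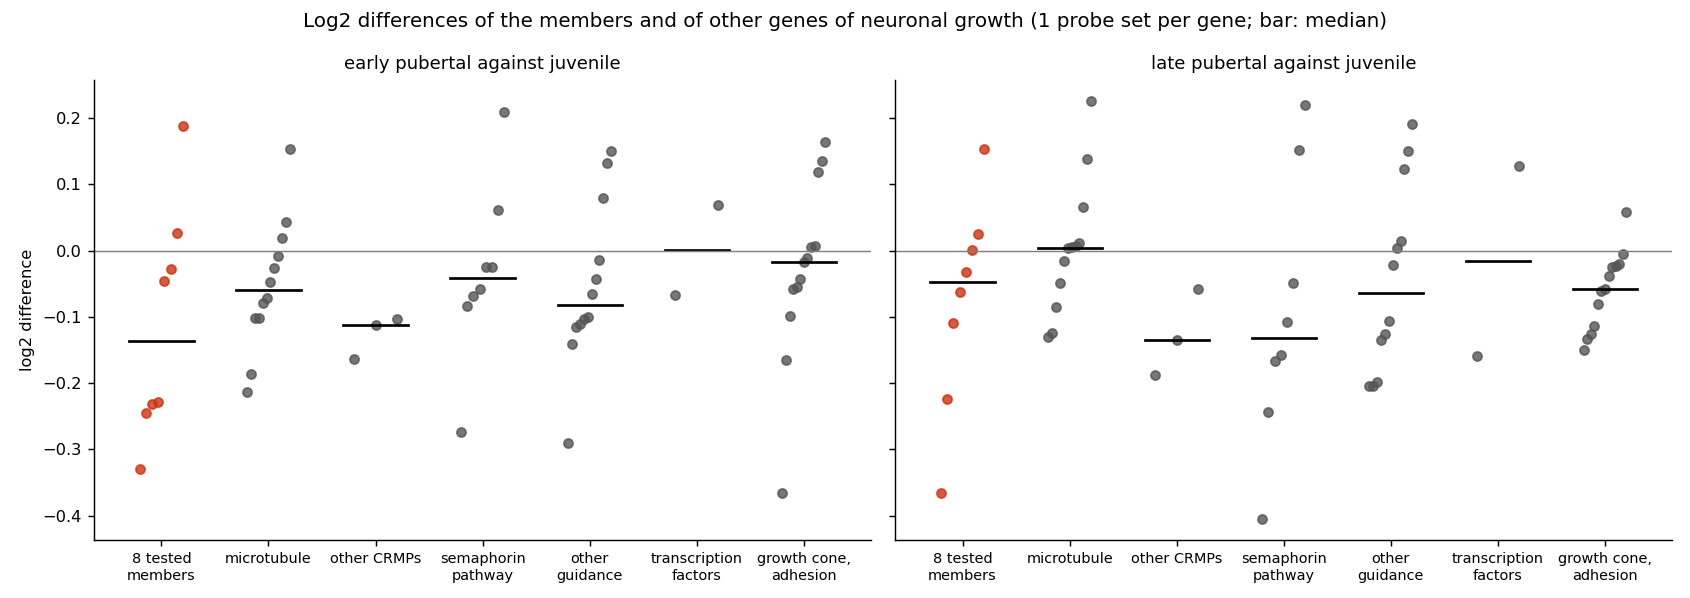
Log2 differences of the 8 tested members (red) and of 50 other genes of neuronal growth (grey) for early pubertal against juvenile rats (left) and late pubertal against juvenile rats (right), with 1 probe set per gene and bars at medians. Both panels use the same juvenile arrays. The members' median is −0.14 in the left panel and −0.05 in the right.

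Markers of cells that carry or lose these genes are given as values, and none passed the limma test. Mature neuron markers were below 0 for 8 of 10 in both pubertal stages against juvenile rats. Rbfox3, a nuclear protein of mature neurons, differed by −0.20 ± 0.08 in early pubertal and −0.004 ± 0.08 in late pubertal rats, and Syt1, the calcium sensor of vesicle release, by −0.23 ± 0.15 and −0.42 ± 0.15. Markers of progenitor and dividing cells were below 0 for 6 of 6 in early pubertal and 5 of 6 in late pubertal rats. Of all tested probe sets 50.4% were below 0 in each of these comparisons, which share the juvenile arrays. Sox2 stood at −0.17 ± 0.08 and −0.26 ± 0.08, and Cdk1 at −0.01 and −0.48, while the division markers Mki67 and Top2a lay below the filter. Cdk1 itself was barely above the filter, at a mean log2 level of 6.41, with late pubertal levels of 5.65, 6.26 and 6.40. Summed signal of the progenitor list ran from 3751 to 4111 in juvenile rats, 3429 to 3911 in early pubertal rats and 3449 to 3895 in late pubertal rats. Oligodendrocyte precursor markers gave 5847 to 6948, 5907 to 6520 and 5879 to 6405 in the same order. Their part in the members' values was not tested.

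For each tested member the 2 named genes with the most similar pattern over the 9 arrays were found by Pearson correlation of log2 levels. Dcx was nearest to Zfp329 (r = 0.967) and Ikzf2 (r = 0.960), Stmn1 to Ap1s1 (r = 0.969) and Rnf41 (r = 0.959), and Tubb3 to Tex2 (r = 0.975) and Asic2 (r = 0.9697). Dpysl5 was nearest to Jakmip2 (r = 0.946) and Usp13 (r = 0.943), and Dpysl3 to Ccny (r = 0.967) and Igfbp6 (r = 0.926). Nrp1 was nearest to Lemd3 (r = 0.946) and Adcy8 (r = 0.925), Gap43 to Sirt2 (r = 0.953) and Rpp25 (r = 0.939), and Dlx1 to Phf12 (r = 0.942) and Ppil3 (r = 0.923). These describe the same 9 arrays and were picked as the highest of 14268 named probe sets. The median tested named probe set had a nearest gene at r = 0.955, and 4 of the 8 members had a nearer one than that.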

How the data were processed

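Each array measured the hypothalamus of 1 female rat. The authors deposited 1 intensity for each probe set and array, unlogged. The submitters' processing notes name MAS5; no version or scaling target was found in the labels or headers. Groups, ages and replicate numbers came from titles and source names. The labels give no batch or pairing, and the number of arrays limits precision. Each p-value sets stage differences or a slope against the spread between these 9 rats, drawn toward that of probe sets of like level.

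Of 31099 probe sets 57 controls were left out. Of the rest 20826 carry 1 symbol, 436 several and 9780 none here. Symbols were matched by Entrez identifier to current records for 20758, which changed 0. No probe set with several symbols held a member.

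Values were taken as log2(signal + 16), quantile-normalized, and kept above the 40th percentile of mean level. limma 3.58.1 in R 4.3.3 fitted 1 mean per stage over all 9 arrays, or a line on age, with a trended prior. In the fit of stage means the prior degrees of freedom were 5.80 and the residual ones 6. Tests were two-sided, with Benjamini-Hochberg adjustment at 0.05 over all kept probe sets within each comparison. The fits were tested on simulated data whose set differences and slopes were larger than those of the members. Whether they would find changes as small as the members' was not tested. Like level means the 500 kept probe sets above and below in mean level. Named genes were all members, the 2 nearest by correlation, and up to 2 per list by the F test. The members, lists and tests were chosen with earlier results of these data known. Alternatives are given in the closing section.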

Additional observations from a re-analysis of the deposited data

How the results depend on the processing

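Under 20 alternatives, 0 member probe sets were called in any comparison, and the lowest limma adjusted p of a member was 0.192, for Dlx1 in early pubertal against juvenile rats at the deposited level. They changed the added constant (1 or 64), the scaling (deposited level or median centring), the filter (none, or the 60th percentile), the prior (untrended or robust), the array weights, the arrays in the fit and the probe sets per gene, or left out each of the 9 arrays. Over all probe sets, in place of 0, limma called 10 at the deposited level in early pubertal against juvenile rats, 1 in late pubertal against juvenile rats, 21 in late against early pubertal rats, 16 by the F test and 1 by the slope. Array weights gave 1 in late pubertal against juvenile rats and 1 by the slope. Leaving out 1 array gave 0 to 1 in late pubertal against juvenile rats, by the F test and by the slope, with the 1 found without juvenile replicate 2.

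Of 703 member values under alternatives, 32 turned sign, of 12 differences and slopes. At the deposited level early pubertal against juvenile Tubb3 was −0.23, late pubertal against juvenile Dcx −0.00687, and late against early pubertal Stmn1 0.13, Gap43 0.13 and Dlx1 0.20. With median centring early pubertal against juvenile Tubb3 was −0.0192 and Gap43 0.0436, and late pubertal against juvenile Dcx −0.0192. With array weights Tubb3 was −0.15 in early pubertal and Dpysl3 −0.0594 in late pubertal against juvenile rats, and the slopes of Dcx and Dpysl3 were 0.00955 and −0.0120.

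Leaving out each array in turn, early pubertal against juvenile values ran from −0.20 to 0.14 for Tubb3, −0.22 to 0.0950 for Dpysl3 and −0.0521 to 0.00634 for Gap43. Late pubertal against juvenile values ran from −0.0970 to 0.11 for Dcx and −0.0898 to 0.15 for Dpysl3. Late against early pubertal values ran from −0.0701 to 0.24 for Dpysl3, −0.0364 to 0.12 for the other Nrp1 probe set, −0.0961 to 0.0565 for Dlx1 and −0.0897 to 0.0140 for Stmn1. Slopes per day ran from −0.0294 to 0.0215 for Dcx and −0.0180 to 0.0293 for Dpysl3. The cause was not tested. No paired analysis was possible because each array is of a single rat at a single stage and the labels give no pairing. With 3 arrays a stage the number of arrays limits precision, and without detection calls the distance of dim probe sets from background is not known here.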
